A study of Arabidopsis thaliana with 4 samples.

Results

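Across the genome, 394 regions of Arabidopsis thaliana chromatin were precipitated with phytochrome A in all 3 replicates and had their midpoint more than 1000 bp from every protein-coding gene. They are called distal regions here. Joining peaks of the 3 replicate lists that shared 1 bp or more gave 10015 merged regions, and 3323 of them (33.2%) held a peak from every list. Of these shared regions, 2719 were shorter than 3500 bp, and the 394 distal regions made up 14.5% of them (95% Wilson interval 13.2 to 15.9%, counting error only). The midpoint of 1200 others lay in a flank, meaning within 1000 bp outside a coding gene, and that of 1125 lay inside a coding gene. The distal regions were thus selected on the presence of a peak in every list, on place and on length, and those values are given as description only.

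The measurement was chromatin immunoprecipitation sequencing (ChIP-seq), in which DNA cross-linked to a protein is pulled down with an antibody and sequenced. All samples, the input included, were 4-day etiolated (dark-grown) seedlings of the phyA201 mutant that carried phyA-GFP, phytochrome A fused to green fluorescent protein, expressed from the PHYA promoter, and all had been given far-red light for 3 h. Chromatin from 5 g of seedlings, fixed in 1% formaldehyde, was precipitated with anti-GFP antibody in 3 biologically distinct replicates. The series also has 1 input sample (DNA before precipitation), which was not used here. No dark-treated, wild-type or GFP-only group is among the samples used, and the fusion protein stands in for the native photoreceptor in whole seedlings. The lists held 7084, 7534 and 6037 peaks with 11110782, 7702516 and 4951883 reads in replicates 1, 2 and 3. Replicate 1 thus had the most reads, and the total depth of the libraries is unknown.

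Phytochrome A is the plant photoreceptor that senses far-red light. After light absorption it is carried into the nucleus with the help of FHY1 and FHL, where it takes part in the change of gene expression that turns dark growth into light growth, acting together with transcription factors. The Arabidopsis genome is compact, so most places are close to a coding gene. Long stretches between coding genes hold noncoding genes such as microRNA (miRNA) precursors as well as regulatory DNA.

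Distal regions had a median length of 1637 bp, with the middle of the distribution between 1162.5 and 2283 bp and extremes of 414 and 3493 bp. Other shared regions had a median of 1928 bp. A single list's peak inside a distal region was also shorter. Its median length was 1406, 1057.5 and 1060.5 bp in replicates 1, 2 and 3, against 1540, 1281 and 1178 bp for the other shared regions. Read counts ran the same way, with medians of 1298, 817.5 and 671.5 reads per peak in distal regions and 1422, 1007 and 759 reads elsewhere. In every replicate the distal peaks were shorter and held fewer reads. The mean difference was -158 ± 57.0 bp in length and -134 ± 51.7 reads (SD, n = 3). Length was part of the selection, so its difference is a description. For reads, an exact two-sided sign-flip test over the 3 replicates gave p = 0.25, the smallest value 3 replicates allow. The test thus could not pass a threshold of 0.05. The adjusted sign-flip p was 0.375 (Benjamini-Hochberg over 3 measures, length among them). Reads followed region length (Spearman 0.73 by mean read percentile), so they were not free of the selection on length.

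Fold enrichment, the authors' ratio of the signal at a peak over its background, did not separate the distal regions with the settings used here. Its median was 4.745, 4.31 and 3.81 in distal regions of replicates 1, 2 and 3, against 4.78, 4.18 and 3.76 in other shared regions. Distal regions were lower in replicate 1 and higher in replicates 2 and 3. The mean difference was 0.0483 ± 0.0825 (SD, n = 3; exact two-sided sign-flip p = 0.5, adjusted p = 0.5). Against the flank regions alone it was 0.00833 ± 0.0846 (exact p = 1). With the regions rebuilt without replicate 2 the mean difference from all other shared regions was 0. With only peaks of at most 1% false discovery rate it was 0.252. Ranks within each list were compared as well. The median distal region stood at the percentile 65.5 ± 3.63 of fold enrichment among all peaks of a list (SD, n = 3), and at 48.5 ± 1.71 by reads. Other shared regions stood at 63.5 ± 2.57 and 59.3 ± 3.05. At the upper end, 43 distal regions (10.9%) had a mean fold percentile over 90, against 145 of the other shared regions (6.24%). By class these were 90 flank regions (7.5%) and 55 gene-body regions (4.89%). Where a list had several peaks in a region, that of highest fold enrichment was used. Exactly 1 peak per list was found in 84.0% of distal and 90.9% of other shared regions. The part of this choice in the count over 90 was not tested.

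**Figure D1:**
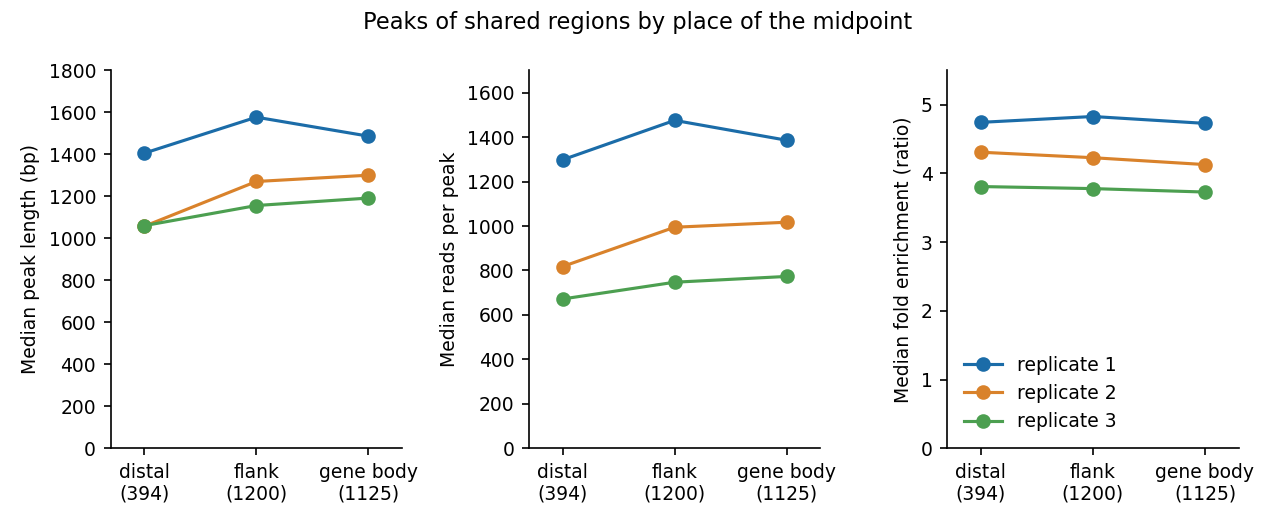
Median peak length (bp), median reads per peak and median fold enrichment (ratio) of shared regions under 3500 bp, by place of the midpoint and replicate; points are medians over the regions, with the number of regions under each class. In each replicate the distal regions are lowest in length and reads, while fold enrichment stays within 0.18 of the gene-body value.

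The distance from the midpoint to the nearest coding gene ran from 1001.5 to 10774 bp, with a median of 1877 bp. It was at most 1500 bp in 127 regions, over 2000 bp in 170, over 3000 bp in 70 and over 5000 bp in 13. Regions are intervals, and 190 of them reached into the 1000 bp beside a coding gene, including 31 that touched a coding gene. The other 204 were wholly clear of the flanks. The summit, the position of highest signal in a peak, was itself more than 1000 bp from a coding gene in all 3 replicates for 322 regions (81.7%) and in no replicate for 23. Distance did not go with strength across the 394 regions, since the Spearman correlation of mean fold percentile with distance was 0.02. The median of the mean fold percentile was 60.9 for the regions within 1500 bp and 63.7 for those over 3000 bp. Reads followed length, with a Spearman correlation of 0.73 between mean read percentile and region length.

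Just inside the distance limit were regions at 1001.5 bp from AT3G22070, 1003.5 bp from NAC019 and 1003.5 bp from AT3G14360, with a mean fold enrichment of 4.03 ± 0.413, 4.59 ± 0.836 and 3.69 ± 0.447 (SD, n = 3). Just outside it, at 1000, 993.5 and 993 bp, the values were 4.08 ± 0.817, 3.95 ± 1.17 and 3.86 ± 0.394. Members just under the length limit measured 3460, 3480 and 3493 bp and had 4.54 ± 1.44, 4.09 ± 0.713 and 4.06 ± 0.599. Shared regions just over it, at 3529, 3530 and 3560 bp, had 4.56 ± 1.15, 3.88 ± 0.304 and 3.30 ± 0.112. Values on both sides of each limit overlapped. A further 91 shared regions were distal but at least 3500 bp long.

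The replicates put their summits close together in most distal regions. The widest distance between the 3 summits had a median of 154.5 bp, and it was at most 200 bp in 231 regions (58.6%), where 65.3% of all shared regions under 3500 bp met that bound. Exactly 1 peak per list was found in 331 distal regions (84.0%), against 89.9% of all shared regions under 3500 bp. In 48 distal regions (12.2%) the summits were over 1000 bp apart, against 9.25% of the other shared regions. The widest were 2470 bp in a region beside AT1G14590, 2375 bp between AT5G22490 and AT5G22500, and 2107 bp beside OPT3, a transporter of the oligopeptide family. In the AT1G14590 region the summits of replicates 1 and 2 were only 72 and 54 bp from a coding gene. In the OPT3 region the replicate 1 summit lay inside a coding gene and that of replicate 2 was 64 bp from one. Fold enrichment of the same region correlated only weakly between lists (Spearman 0.38, 0.37 and 0.34 for replicates 1 and 2, 1 and 3, and 2 and 3 over 394 regions, which share merged intervals and a lower limit of 2.95). In 239 regions replicate 1 had the highest of the 3 values. The whole lists ran the same way, with a median fold enrichment of 4.38, 3.85 and 3.58 in replicates 1, 2 and 3.

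The region highest by fold rank covered 524860 to 527668 on chromosome 4 (TAIR10). Its midpoint lay between WRKY22, a WRKY transcription factor of the defence response, and AT4G01245, and its interval reached into AT4G01245. The fold enrichment of the region was 9.39, 9.08 and 6.32 in replicates 1, 2 and 3, from 2890, 906 and 884 reads. Replicate 3 was well below the other two, and the summits lay within 45 bp of each other, 1077 to 1122 bp from the nearest coding gene. The interval held 5 peaks, and where the peak with most reads was taken in each list in place of the one with the highest ratio, the mean fell from 8.26 ± 1.69 to 5.88.

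The region next in rank lay on chromosome 5 from 18378295 to 18379657, 7955 bp from CYP707A3, which inactivates abscisic acid, and 2823 bp from AT5G45350. It showed 7.58, 8.24 and 6.92-fold enrichment, a narrower spread than the WRKY22 region. A region between AT3G52490 and AT3G52500 followed with 7.61, 8.2 and 6.64. A region 3490 bp from TIP2, a vacuolar membrane channel, gave 7.38, 6.31 and 6.13, but its summits were up to 1850 bp apart. The region 1397.5 bp from ACR8, which encodes an ACT-domain protein, gave 8.2, 6.15 and 5.53, and all 3 of its summits were within 1000 bp of that gene.

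Near EXO, a cell growth gene known for its response to brassinosteroids, a region at 1291.5 bp gave 6.93, 7.88 and 5.33. Regions 1430.5 bp from TCX2, a gene of the tesmin family, 2521 bp from AT1G60160 (with TPS10, of the trehalose phosphate synthase family, 3769 bp away on the other side) and 1684.5 bp from AT5G03660 (with TRM28 at 5346.5 bp) came next, with means of 6.39 ± 1.16, 6.31 ± 1.12 and 6.29 ± 0.996. Replicate 3 was the lowest of the 3 in 8 of the 9 regions described, and its whole list also had the lowest median (3.58).

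**Figure D2:**
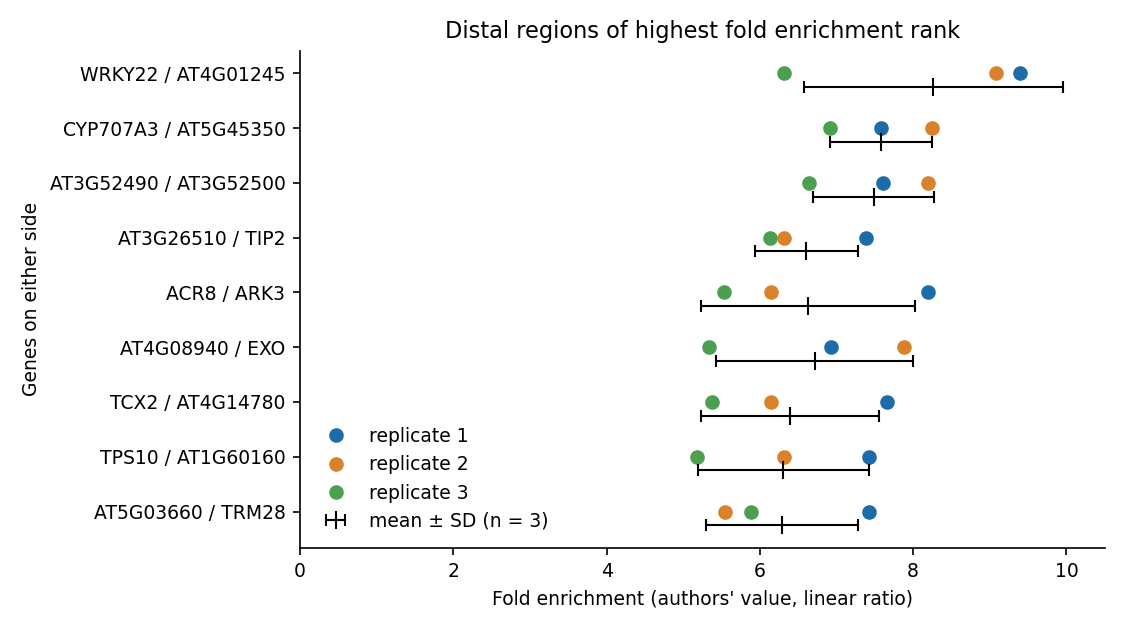
Fold enrichment (authors' linear ratio, x axis) of 9 distal regions among the highest by mean percentile rank, each row named by the coding genes on either side; dots are replicates and the bar is the mean ± SD (n = 3). The WRKY22 region reaches 9.39 in replicate 1, and the CYP707A3 region has the narrowest spread of the 9 (SD 0.660).

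At the other end, the lowest fold rank belonged to a region 1137.5 bp from BIN2, the kinase that holds back brassinosteroid signalling. Its enrichment was 3.48, 3.02 and 3.15, close to the 2.95 below which no list holds a peak. Its summits nevertheless fell within 24 bp, 844 to 868 bp from the gene. The 2 regions next above it, beside AT5G09800 and AT1G52190, had means of 3.28 ± 0.315 and 3.14 ± 0.162.

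Ranked by reads, the leading regions were longer and mostly of moderate enrichment. A region 1049.5 bp from BMY3, a beta-amylase gene, held 2352, 2364 and 1951 reads at 4.95, 4.56 and 4.17-fold. A region between AT3G14060 at 1084 bp and RSH2, a gene of guanosine tetraphosphate metabolism, at 1652 bp held 2320, 2048 and 1749 reads at 5.8, 5.03 and 4.27-fold. The other 3 lay 2014.5 bp from GRF4, a growth-regulating factor, 1208 bp from AT4G23760 (with CRF2, a cytokinin response factor, at 2590 bp) and 2727 bp from AT3G50620 (with KRP2, an inhibitor of cell-cycle kinases, at 10627 bp). Their fold enrichment ranged from 3.29 in replicate 2 at CRF2 to 5.45 in replicate 1 at KRP2. The intervals near BMY3, AT3G14060 and AT4G23760 reached into these coding genes.

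Remoteness from coding genes was extreme for a few regions. The farthest, 703 bp long on chromosome 1, was 10774 bp from AT1G42430 and 119231 bp from AT1G42190, with 7.22, 4.79 and 4.88-fold enrichment and only 651, 442 and 434 reads. Another lay 8507.5 bp from NIA2, which encodes a nitrate reductase, at 3.36, 3 and 3.58-fold. A region 7136.5 bp from AT5G19100 gave 4.65, 4.92 and 4.46, with summits up to 1361 bp apart. It overlapped 3 noncoding genes, AT5G02985, AT5G03005 and AT5G19095. Both remaining regions of the 5 farthest were in the 18847 bp gap beside SUC1, a sucrose transporter gene. Local gene density differed modestly: a median of 26 coding genes lay within 50000 bp either side of a distal region, against 29 for other shared regions.

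Noncoding genes were overlapped by 98 distal regions (24.9%, 95% Wilson interval 20.9 to 29.4%), where 19.5% of all shared regions under 3500 bp overlapped one. The share was 21.8% in flank regions and 15.2% in gene-body regions. Since the rule keeps regions away from coding genes only, noncoding genes are free to fall in them. The 131 genes overlapped were 92 long noncoding RNAs, 9 genes of miscellaneous RNA, 8 pseudogenes, 6 other ncRNAs, 5 miRNA genes, 4 tRNA genes, 4 snoRNA genes and 3 transcribed pseudogenes. Genes of snRNA and antisense RNA were overlapped by no distal region, where each type was overlapped by 9 of all 2719 shared regions (0.331%), so a count of 0 is near that share. Genes of tRNA were reached by 4 distal regions (1.02%), against 103 of all 2719 shared regions (3.79%). Overlap often missed the summit: all 3 summits lay inside a noncoding gene in 25 regions, 1 or 2 of them in 26 and none in 47. Regions with a noncoding gene were longer (median 1912 against 1601.5 bp), and the part of length in the overlap was not tested. Their median fold enrichment was 4.605, 4.41 and 3.775, against 4.78, 4.31 and 3.825 for the 296 without, higher only in replicate 2.

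Precursors of miRNAs, short RNAs that silence matching transcripts, were reached by 5 distal regions (1.27%), against 17 of all 2719 shared regions (0.625%). MIR167a gives rise to miR167, which acts on the auxin response factors ARF6 and ARF8. The region over it, on chromosome 3 from 8107349 to 8109899 in the gap between DMC1 and APS1, had 6.77, 5.48 and 4.56-fold enrichment from 2739, 934 and 680 reads. The whole precursor lay inside the interval, with the summits 356, 198 and 208 bp away from it. MIR168a, whose miRNA acts on AGO1, the main slicer of the miRNA pathway, lay in a region with 5.38, 4.99 and 4.97-fold enrichment (mean 5.11 ± 0.231), and its summits were 233, 180 and 315 bp off. The summits of replicates 1 and 3 there were within 1000 bp of a coding gene, at 998 and 916 bp. MIR156c belongs to the family that represses SPL transcription factors and holds plants in the juvenile phase. Its region, on chromosome 4 from 15414381 to 15417027, ranked low with 3.69, 3.61 and 4.12-fold, and the summits were 225, 500 and 387 bp from the precursor.

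MIR779 was only grazed, by 32 of its 163 bp, in a region of 6.11, 4.62 and 5.37-fold enrichment that also held a pair of snoRNA genes. The summits were 736 to 799 bp from MIR779 and 330 to 393 bp from the nearer snoRNA gene. MIR776 lay in a region of 4.67, 3.98 and 3.36-fold, with summits 286, 322 and 486 bp away. All 3 of these summits were within 1000 bp of a coding gene, at 618, 582 and 418 bp. No summit in any replicate fell inside a miRNA precursor.

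TAS3 produces the trans-acting short RNAs that silence ETT (ARF3) and ARF4. It was reached from both sides, by 514 bp in a region at 3.67, 4.73 and 3.51-fold and by 4 bp in a neighbouring one at 3.89, 3.07 and 3.38-fold. In the former region the replicate 1 summit lay inside TAS3, and those of replicates 2 and 3 were 140 and 155 bp away. Summits were closest to small noncoding genes at a pair of tRNA genes. At AT1G78250 they were 10, 55 and 39 bp away (3.85, 4.68 and 3.49-fold). At AT2G42420, between ZFP11 and LBD16, those of replicates 2 and 3 were inside the gene and that of replicate 1 was 225 bp away.

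**Figure D3:**
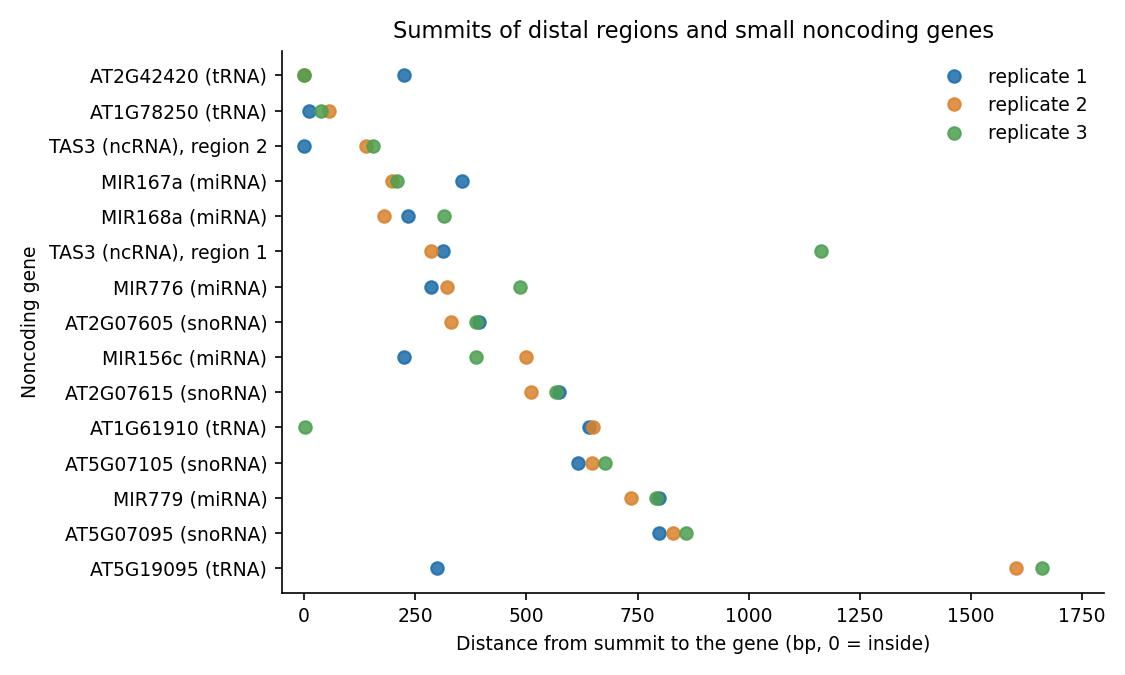
Distance in bp (x axis) from the summit of each replicate to the miRNA, TAS3, tRNA and snoRNA genes that distal regions overlap (rows, ordered by the median distance); 0 is inside the gene. TAS3 has 2 rows because 2 regions touch it, and all summits of the 5 miRNA precursors lie between 180 and 799 bp.

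Coding neighbours were described by gap, the stretch between adjacent coding genes. Of 6538 gaps longer than 2000 bp, the least that can hold a distal midpoint, 354 (5.41%) held a distal region. The share was 1.20% for gaps of 2000 to 3000 bp and 4.00% for those of 3000 to 4000 bp. It was 8.22% from 4000 to 6000 bp and 12.8% from 6000 to 10000 bp. Beyond 10000 bp it was 6.53%. Distal regions occurred singly in 320 gaps, in pairs in 28 and as 3 in 6.

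Genes of hormone synthesis and signalling bordered 29 distal regions (7.36%), against 3.24% of all shared regions under 3500 bp, and genes of any of the 6 lists bordered 96 (24.4%, where 13.6% of all shared regions did). A listed gene was the nearest coding gene in only 14 of the 29 and 48 of the 96. In the rest the neighbour on the other side, not always named below, was closer. Because the gene that holds a gene-body region does not count as its neighbour, the gaps are the fairer base. A distal region was held by 25 of 167 gaps beside hormone genes (14.97%), 53 of 571 gaps beside transcription factor genes (9.28%) and 7 of 72 beside cell wall genes (9.72%), against 5.41% of all gaps. Gaps beside hormone genes were longer (median 4303 bp against 3742.5 bp for all). In each of 4 length classes the shares beside hormone and transcription factor genes were above those of all gaps. In gaps of 4000 to 6000 bp a distal region was held by 18.4% beside hormone genes (7 of 38) and 13.6% beside transcription factor genes (20 of 147), against 8.22% of all. In gaps of 6000 to 10000 bp the shares were 25.7% (9 of 35), 21.7% (18 of 83) and 12.8%. The 95% Wilson intervals overlapped those of all gaps in both classes, with lower ends of 9.22 and 8.98% against an upper end of 9.78% for all gaps in the former, and 14.2% for both against 15.2% in the latter. For transcription factor genes the share was 3.26% in gaps of 2000 to 4000 bp, against 2.22% of all. Beyond 10000 bp it was 14.7% against 6.53%. The lower ends, 1.78 and 6.45%, lay below the shares of all gaps. Beside hormone genes the share at 2000 to 4000 bp was 6.33% (5 of 79, interval 2.73 to 14.0%, against 1.79 to 2.76% for all gaps). Beyond 10000 bp it was 26.7%, from only 4 of 15 gaps. There the interval, 10.9 to 52.0%, lay above that of all gaps, 4.93 to 8.61%. The intervals cover counting error only, and gaps that share a gene are not independent.

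**Figure D4:**
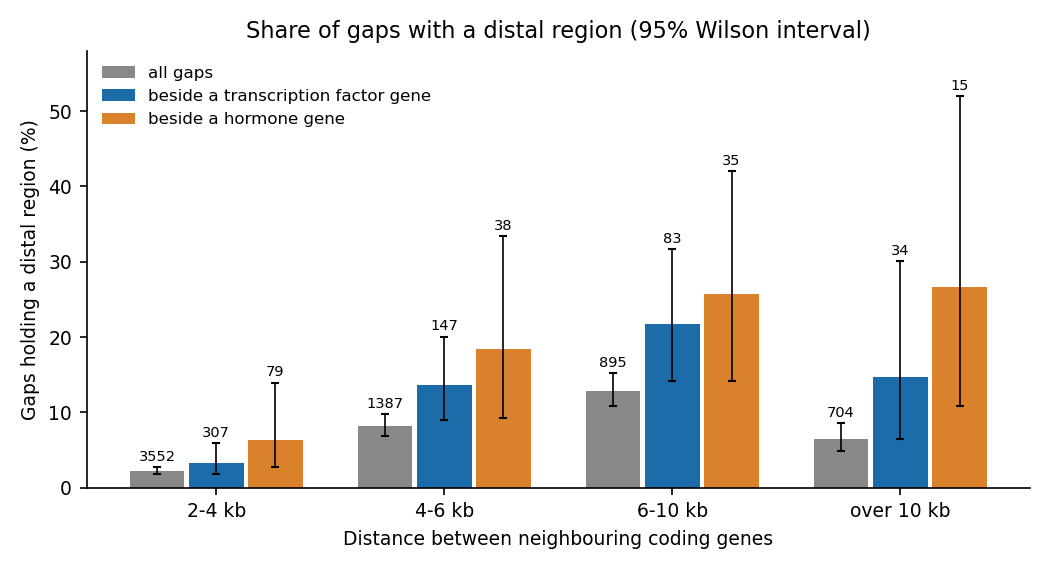
Share of gaps between neighbouring coding genes that hold a distal region (%, y axis) by gap length, for all gaps and those beside a hormone or transcription factor gene; error bars are 95% Wilson intervals and the number of gaps stands above each bar. Shares are highest at 6000 to 10000 bp for all gaps and for transcription factor gaps.

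By hormone, 13 of the 29 regions bordered auxin genes, 11 gibberellin genes, 3 brassinosteroid genes and 2 abscisic acid genes. None bordered the 19 ethylene or 16 jasmonate genes of the list, which flank 19 and 11 gaps. A distal region was held by 9 of 29 gaps beside gibberellin genes (31.0%), 11 of 76 beside auxin genes (14.5%), 3 of 6 beside brassinosteroid genes and 2 of 26 beside abscisic acid genes (7.69%), against 5.41% of all gaps. With so few gaps, the count of 0 for ethylene and jasmonate is near that share. The split by hormone was made after the values were seen.

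Gibberellin promotes stem growth, and the DELLA proteins hold that growth back until gibberellin removes them. RGL1, a DELLA gene, lay 3994 bp from a region with 7.45, 6.54 and 4.69-fold enrichment, where the summits fell within 71 bp. RGA1, another DELLA gene, was the left neighbour of 3 distal regions in a 7453 bp gap. The one at 1502 bp showed 6.14, 4.99 and 4.97-fold, that at 4144 bp 4.44, 3.94 and 3.88-fold, and that at 5776 bp 5.3, 4.84 and 6.3-fold. The middle region was the weakest of the 3 in every replicate. The near region overlapped the long noncoding RNA gene AT2G04015, which held 2 of its 3 summits.

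The synthetic enzymes of the pathway were GA20OX3, at 2039 bp from a region of 6.43, 4.95 and 3.88-fold, GA20OX1 at 1246 bp (3.72, 4.45 and 4.07-fold) and GA3OX1, as a distant neighbour at 14401.5 bp. GA2OX enzymes inactivate gibberellin. GA2OX4 shared a gap with MYB112 where a region at 1809 bp reached 7.16, 6.16 and 4.32-fold, with summits within 43 bp. A region on the other side of GA2OX4, at 2976 bp, was weaker (5.06, 3.55 and 3.38-fold). GA2OX6 had a region at 1175 bp with 5.2, 5.21 and 3.59-fold.

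Auxin neighbours covered transport, synthesis and response. The auxin efflux carrier gene PIN7 had a region at 2152 bp with 4.05, 4.74 and 4.19-fold enrichment. YUC8, a gene of auxin synthesis, bordered 2 regions at 1170.5 and 3719 bp, with 5.88, 3.12 and 3.34-fold in the nearer and 3.55, 4.21 and 4.04-fold in the other. Replicate 1 alone was high in the nearer one. ARF10, an auxin response factor, shared a 7626 bp gap with GATA13 that held 2 regions. The one 2109 bp from GATA13 had 6.58, 5.49 and 5.68-fold, and the one 2466.5 bp from ARF10 had 5.97, 4.31 and 4.37-fold, lower in each replicate. The response repressors IAA8, IAA9 and IAA18 lay 4418, 4574.5 and 2381.5 bp from distal regions with means between 4.25 and 4.57.

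Brassinosteroid neighbours were DWF4, which encodes the rate-limiting synthetic enzyme and lay 4694 bp from a region of 5.94, 4.72 and 4.71-fold, BAS1, which inactivates the hormone (6015.5 bp, 5.83, 4.41 and 3.46-fold), and BIN2. For abscisic acid, NCED9, a gene of the committing step of synthesis, had a region at 1201 bp with 3.04, 3.77 and 3.29-fold, among the lowest ranks. CYP707A3 also acts on abscisic acid but is not in the list, and its 10777 bp gap held 2 distal regions.

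A distal region was held by 2 of 23 gaps beside light signalling genes (8.70%), 1 of 15 beside clock and flowering genes (6.67%) and 1 of 15 beside photosynthesis and pigment genes (6.67%), counts too small to set against the 5.41% of all gaps. PHOT1, a blue light photoreceptor, lay 1839 bp from a region with 6.35, 4.95 and 4.61-fold enrichment and 2123, 1349 and 922 reads. BBX21, a B-box factor that promotes light growth, lay 2174 bp from a region of 5.28, 3.07 and 3.17-fold, high in replicate 1 alone. These were the only 2 of 45 listed light signalling genes, and 17 of all 2719 shared regions bordered a gene of that list. The clock gene PRR5 was flanked by 2 regions in its 5284 bp gap, at 1395.5 bp (6.78, 4.51 and 5.25-fold) and 2763.5 bp (4.7, 3.62 and 4.5-fold), the nearer one higher in every replicate. PSY, whose product makes the first dedicated carotenoid precursor, had a region at 1353 bp with 6.4, 4.12 and 4.43-fold. Cell wall neighbours were led by EXGT-A3 (XTH27), a xyloglucan-remodelling enzyme gene, at 1508 bp (5.82, 7.74 and 5.24-fold), and CESA6, a subunit of the cellulose synthase of growing walls, at 4421.5 bp (6.84, 4.67 and 6.18-fold). The expansin genes EXPA4, EXPA9 and EXPA10, of wall loosening, bordered regions of lower rank.

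Transcription factor families bordered 59 distal regions (14.97%, against 8.13% of all shared regions under 3500 bp). The listed gene was the nearest coding gene in 26 of the 59. Besides WRKY22, MYB112 and GATA13, values by fold rank were 5.59, 5.72 and 5.02 at TCP1 (4316 bp away), 5.39, 6.3 and 5.02 at GATA5 (2570 bp) and 5.37, 5.42 and 5.13 at MYB47 (3311.5 bp). TCP1 and GATA5 had all 3 summits within 1000 bp of their other neighbour, RTFL21 and AT5G66310. MYB30, a regulator of the hypersensitive response, lay 2198 bp from a region of 7.81, 4.33 and 5.37-fold, the widest replicate spread among the named regions (SD 1.79). HB16, a homeodomain-leucine zipper gene, had a pair of regions, at 5002.5 and 1198.5 bp. At MYB87 and HAT22, 5.07, 5.53 and 5.27 were close together (mean 5.29 ± 0.231).

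The 6 gaps with 3 distal regions each were bordered by RGA1, AT1G64380, GATA4, HPT1 with HA1, GPAT6 with AUX1, and SUC1. The gap between AT1G64380 and AT1G64385 held the strongest of these, 691 bp long, with 7.24, 5.13 and 5.82-fold enrichment at 1507 bp from AT1G64380. AUX1, the auxin influx carrier, was 3535, 10180.5 and 12392 bp from its 3 regions, and the nearest had 3.55, 5.01 and 4.99-fold. HA1 encodes a proton pump of the plasma membrane and HPT1 an enzyme of vitamin E synthesis. Their 11000 bp gap held regions at 1036, 5652 and 9484 bp from HPT1, with means of 4.41 ± 0.308, 3.85 ± 0.322 and 4.15 ± 0.727. In the GATA4 gap the means were 5.08 ± 0.217, 4.73 ± 0.289 and 4.35 ± 0.489, lowest in the region nearest GATA4. Regions of a gap share their neighbours and are not independent.

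**Figure D5:**
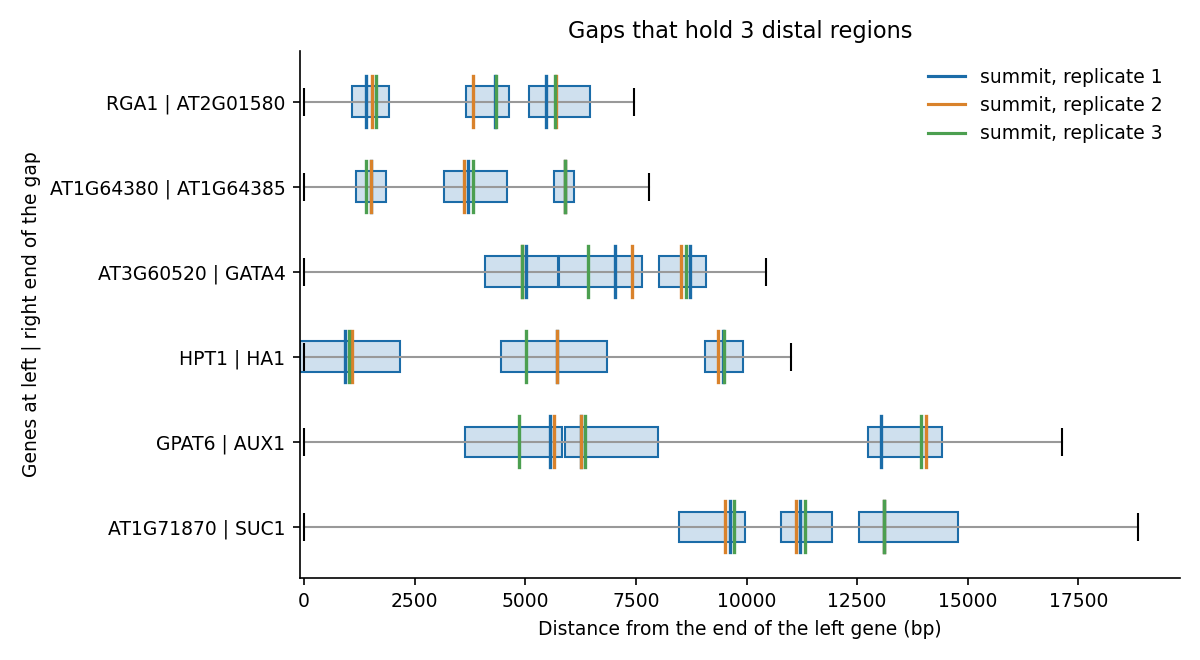
Positions of distal regions (boxes) in the 6 gaps that hold 3 of them, as distance in bp from the end of the left coding gene; black ticks are the ends of the gap and coloured lines the summits of the 3 replicates. In the AT3G60520 gap with GATA4 and the GPAT6 gap with AUX1 a pair of regions nearly touches, while the regions of the 7453 bp RGA1 gap are separate.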

How the data were processed

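Peak lists of the 3 ChIP samples were used, and the input was not used here. Bowtie and the build TAIR10 are named per the submitters' processing notes. The peak caller is not given in the sources used here. Columns have no header, so their meaning was read from their values and order, which is that of MACS output. The authors' deposited read counts are whole numbers, not normalized. The deposited score, read as minus 10 times log10 of a p-value, was not used. The authors' deposited fold enrichment is a linear ratio, and lists need not share a scale, so SDs over replicates also hold differences between lists. The deposited false discovery rate is in percent, at most 4.99%.

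Of several peaks of a list in a region, that of highest fold enrichment was used. Genes came from the NCBI table of TAIR10.1 (27444 coding and 10455 other nuclear genes), which gives no strand, so upstream and downstream were not told apart. The members and lists were chosen with earlier results of these data known. From the 6 lists, 19 genes that share only a symbol with the gene meant were removed. Named regions were the 10 highest by mean percentile of fold enrichment, the 5 highest by reads, the 5 farthest from a coding gene, those over small or named noncoding genes (up to 15), the 25 of highest fold rank beside list genes, those at the limits, the 3 lowest and the 3 with the widest summits. Of the 10 highest, 1 is not reported here. Further list genes and the gaps with 3 regions were chosen after their values were seen. The sign-flip test compared medians per replicate, and intervals cover counting error only. Alternatives changed the distance, length, overlap, false discovery rate, position, gene set and replicates. Python 3.11.15, numpy 2.4.6, pandas 2.3.3, scipy 1.17.1 and matplotlib 3.10.9 were used, and the merge and distance steps were tested on simulated data.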

Additional observations from a re-analysis of the deposited data

How the results depend on the processing

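The 394 distal regions became 705 at a limit of 500 bp and 170 at 2000 bp, which are 25.9 and 6.25% of shared regions under 3500 bp. With peaks of at most 1% false discovery rate 84 remained (16.0%), and with distance from all annotated genes the share was 10.6%. Median length was 1912 bp at 500 bp, 1913 bp with no length limit and 2056.5 bp at 1% false discovery rate. Noncoding overlap was 1.04% with distance from all genes, by construction. All 3 summits were distal in 73.2% at 500 bp, 73.0% with no length limit and 86.5% with position as the mean of the summits. Under the 1% limit the widest summit distance had a median of 174.5 bp, and the percentiles were 87.5 by fold and 69.2 by reads. The read percentile was 54.1 at 500 bp, 46.5 at 2000 bp and 54.9 with no length limit. Under the 1% limit 2.99% of hormone gaps and 2.45% of transcription factor gaps held a distal region, against 1.25% of all.

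Leaving out each replicate in turn, so that regions were shared by 2 lists, gave 515 to 616 regions, a median length of 1302 to 1519 bp, all summits distal in 84.3 to 85.3%, a widest summit distance of 78 to 85 bp, percentiles of 59.5 to 62.9 by fold and 43.5 to 47.0 by reads, and 11.4 to 14.0% of transcription factor gaps, while the share of all gaps was 6.97 to 8.26%. The most regions, 616, came without replicate 3. Over these runs the difference in fold enrichment ranged from 0 without replicate 2 to 0.075 without replicate 1. Of all alternative runs made for it, it was largest under the 1% false discovery rate limit, at 0.252. The mean differences in length and reads stayed negative in every alternative run made for them, those against flank regions alone included. They were smallest at the 500 bp limit, at -39.8 bp and -57.5 reads, and largest under the 1% false discovery rate limit, at -333 bp and -281 reads. The choice of the peak with most reads was not run for these differences. With the peak of most reads, 1 of the 66 named regions, that beside WRKY22, moved by more than its SD in fold enrichment, and regions with 1 peak per list cannot move under that choice. The settings for the gaps and most of those for the differences were chosen after seeing the data. Samples could not be paired between groups, because the ChIP samples form 1 group with no second group to pair with. Distal and other regions were compared within each replicate, so the sign-flip test was paired by replicate. Library depth is unknown, which leaves the limit of detection of a peak in each list unknown.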
